A study of Rattus norvegicus with 71 samples.

Results

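Vwf, Tek, Cldn5, Car4 and Sox17 are genes by which the endothelium of the lung is commonly recognised. They were followed here in whole lungs of young rats. The 5 genes were chosen by symbol, as all probes whose platform annotation names one of them, out of 13337 genes with a symbol on the array. Each gene had 1 probe, and each of these 5 probes was detected on 71 of 71 arrays. The 71 Illumina bead arrays covered 18 groups, formed by 3 inbred strains (Lewis, Fisher and Brown Norway), 2 exposures before birth and 3 ages. PN1, PN7 and PN14 stand for lungs of postnatal days 1, 7 and 14. Pups had been exposed in utero to saline or to ovalbumin, the egg white protein used as a model allergen. Each group had 4 arrays, except the Fisher PN7 saline group with 3. The labels give neither the dose nor the route nor the days of exposure, and they name no dam, litter or sex. P-values therefore measure only the spread between these samples, part of which may be technical. All RNA came from whole lung, so fewer endothelial cells and less RNA per endothelial cell cannot be told apart.

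The endothelium lines every vessel of the lung, and the capillary bed that surrounds the alveoli grows and is remodelled after birth while the alveoli form. Vwf encodes von Willebrand factor, a secreted clotting protein that endothelial cells store in Weibel-Palade bodies and that megakaryocytes and platelets also carry. Tek encodes the receptor tyrosine kinase for the angiopoietins. Cldn5 encodes the claudin of endothelial tight junctions. Car4 encodes a membrane-anchored carbonic anhydrase at the surface of lung capillaries, and in the mouse it marks the large capillary cells, called aerocytes, that spread over the alveoli. Sox17 encodes an SRY-box transcription factor that supports arterial identity in the mouse.

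On the GRCr8 assembly, the RefSeq gene table places Vwf on chromosome 4 from 160042900 to 160177757 and Tek on chromosome 5 from 114722815 to 114849535. Sox17 lies on the same chromosome as Tek, from 19814345 to 19819859. Car4 spans 70325102 to 70333916 on chromosome 10, and Cldn5 spans 95717172 to 95718598 on chromosome 11. RefSeq promoter windows, from 250 bases before the transcription start to 50 after it, were given for Car4 and Cldn5, and they are printed because these genes took opposite courses in both comparisons where the prenatal exposure went with the largest differences. Capitals mark the core of the ETS factor motif, GGAA on either strand (TTCC when read on the other). The Car4 window is chr10:70325108-70325407 on the plus strand, and the Cldn5 window is chr11:95718549-95718848 on the minus strand. The Car4 window lies within the span given for the gene, so the start it uses is inside that span.
Car4: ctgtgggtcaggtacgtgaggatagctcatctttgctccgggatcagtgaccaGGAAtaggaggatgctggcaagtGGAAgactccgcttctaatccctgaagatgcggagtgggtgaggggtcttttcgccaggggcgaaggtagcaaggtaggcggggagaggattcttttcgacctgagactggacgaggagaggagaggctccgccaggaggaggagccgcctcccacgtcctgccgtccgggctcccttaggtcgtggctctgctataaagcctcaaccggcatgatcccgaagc
Cldn5: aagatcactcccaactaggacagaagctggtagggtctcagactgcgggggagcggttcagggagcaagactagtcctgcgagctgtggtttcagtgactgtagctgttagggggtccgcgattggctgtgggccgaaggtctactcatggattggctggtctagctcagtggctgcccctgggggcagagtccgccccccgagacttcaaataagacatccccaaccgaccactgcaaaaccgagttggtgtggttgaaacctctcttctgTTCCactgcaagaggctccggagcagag
The Car4 window held 2 matches to GGAA, at positions 54 and 77 from its first base, and the Cldn5 window held 1, near the start site and on the other strand. Of 33469 RefSeq promoter windows of the same length, 95.8% held at least 1 such match and their median was 3, so these matches set neither gene apart. The SOX core ACAAT was in neither window on either strand, against 33.7% of all windows. The TATA motif TATAAA occurred once, in the Car4 window at position 270, against 14.2% of all windows. The motifs do not overlap each other, and a match describes letters and not a bound site. GC content was 59.7% in the Car4 window and 57.7% in the Cldn5 window.

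Signals are given as log2 of the background-corrected, quantile-normalized probe signal, so a difference of 1 is a doubling. Levels are compared between groups for one probe and never between probes. A difference was called when its adjusted p in limma, with Benjamini-Hochberg adjustment over 14019 tested probes, was under 0.05. Between 10128 and 12437 probes were detected per array, and the median raw signal per array lay between 117.9 and 182.4. Raw signals were lowest for Tek, from 305.3 to 1660 over the 71 arrays. They ran from 748 to 5209 for Sox17, 849 to 10177 for Car4, 2014 to 15682 for Vwf and 10956 to 41921 for Cldn5. The whole-lung label was checked with 10 tested genes of alveolar and airway epithelium, none of which was undetected in any group. Of the other lung endothelial markers listed, Cdh5, Tie1, Emcn and Esam had a probe and were tested.

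Some arrays stood apart from their groups and bear on the results. Array a of Lewis PN1 ovalbumin, array a of Fisher PN1 saline, array d of Lewis PN7 saline and array c of Fisher PN7 saline were taken as in doubt from earlier work on these data. The log2 of the summed signal of 4 liver genes reached 14.597 in Fisher PN1 saline and 13.539 in Lewis PN7 saline. It also reached 11.779 in Fisher PN14 ovalbumin, 10.778 in Fisher PN7 saline and 10.312 in Lewis PN7 ovalbumin. In Brown Norway PN1 saline it was at most 7.138. Such sums, here and below, are taken before the log2, so the brightest genes of a list weigh most. For 4 leukocyte genes the sum reached 11.667 in Lewis PN1 ovalbumin, against at most 10.025 in Lewis PN1 saline. Array c of Fisher PN7 saline had a Vwf signal of 11.95, against 13.45 on both other arrays of its group. Array d of Lewis PN7 saline had the lowest Tek signal of the series, 8.24, against 9.16 to 9.43 on the other 3. Results that rest on these arrays are given with and without them.

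**Figure D1:**
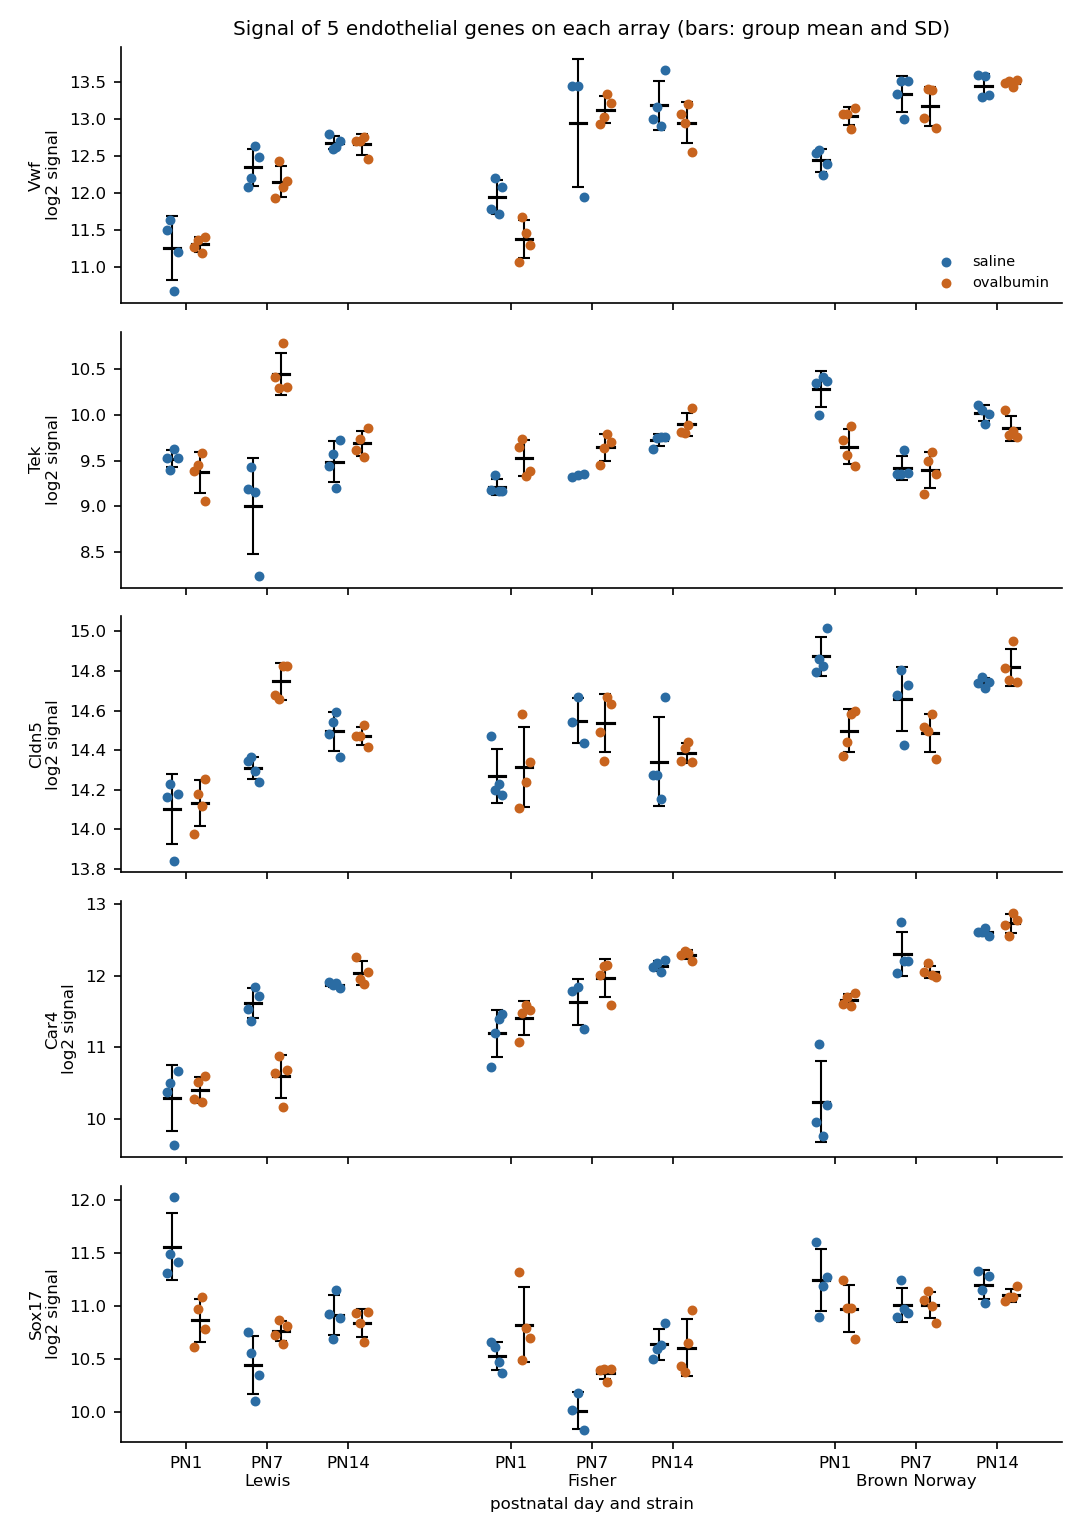
Log2 signal of each gene (vertical axes, one panel per gene) on each of the 71 arrays, by strain and postnatal day (horizontal axis), with saline in blue and ovalbumin in orange. Bars show the group mean and SD (n = 4, and 3 for Fisher PN7 saline). Lewis PN7 ovalbumin is high for Tek and low for Car4, and Brown Norway PN1 saline is high for Cldn5 and low for Car4.

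Vwf and Car4 rose between PN1 and PN14 in the saline lungs of every strain. On the mean of the strains, Tek and Sox17 dipped at PN7, though Tek did not in Fisher, and Cldn5 moved little. Averaged over the 3 strains, 2 of the 5 genes were called higher and 2 lower at PN7 than at PN1, where 47% of all tested probes were called. From PN7 to PN14, 3 were called higher and none lower, against 45% of all probes. From PN1 to PN14, 2 were called higher and none lower, against 35.2%. These shares are high over the whole array, and 5 genes are too few to set a count apart from them. The direction and size are therefore the description. The PN1 and PN7 saline arrays share no slide and neither do those of PN7 and PN14, so slide and age cannot be told apart for these steps except through the fitted slide terms given in the closing section.

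Vwf, the stored clotting factor, had saline signals with a lowest, median and highest value of 10.67, 11.93 and 12.59 at PN1 (n = 12). The corresponding values were 11.95, 12.998 and 13.52 at PN7 (n = 11) and 12.60, 13.09 and 13.66 at PN14 (n = 12). Every PN14 array lay above every PN1 array. The rise to PN7 was 1.00 ± 0.11 (SE; 2-fold, limma adjusted p = 1.25e-10), and the rise to PN14 was 1.22 ± 0.11 (adjusted p = 2.49e-14). The step from PN7 to PN14 was 0.22 ± 0.11, with a 95% interval from -0.002 to 0.45, and was not called.

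Within strains, the share of all probes called between PN1 and PN7 in saline lungs was 28.9% in Lewis, 27.9% in Fisher and 39% in Brown Norway. Between PN1 and PN14 it was 17.5% in Lewis, 15.1% in Fisher and 31.2% in Brown Norway. The rise of Vwf to PN7 was called in each saline strain, at 0.90 to 1.09. Lewis arrays read 11.50, 11.64, 10.67 and 11.21 at PN1 and 12.09, 12.20, 12.63 and 12.48 at PN7, a rise of 1.09 ± 0.19. Brown Norway arrays read 12.55, 12.59, 12.25 and 12.39 at PN1 and 13.35, 13.52, 12.998 and 13.51 at PN7, a rise of 0.90 ± 0.19. The ages did not overlap in either strain. Fisher arrays read 11.78, 12.20, 11.72 and 12.08 at PN1 and 13.45, 13.45 and 11.95 at PN7, a rise of 1.00 ± 0.20 that was 1.503 without array c. A test of whether the age course differed between strains gave an adjusted p of 0.718 for Vwf, against 37% of all probes called in that test.

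Car4, the capillary carbonic anhydrase, had the widest span of group means, 5.63-fold between the highest and the lowest of the 18 groups. Its saline signals had a lowest, median and highest value of 9.63, 10.59 and 11.46 at PN1. They were 11.26, 11.84 and 12.76 at PN7, and 11.83, 12.15 and 12.67 at PN14. All PN14 arrays lay above all PN1 arrays. Car4 rose by 1.27 ± 0.10 to PN7 (2.42-fold, adjusted p = 1.14e-14) and by another 0.36 ± 0.10 to PN14 (adjusted p = 0.00393), or 3.1-fold from PN1 to PN14.

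The age course of Car4 differed between the saline strains (adjusted p = 1.18e-05 for the interaction). In Brown Norway, Car4 read 9.96, 11.05, 9.76 and 10.19 at PN1 and 12.05, 12.76, 12.20 and 12.21 at PN7, a rise of 2.07 ± 0.18 (4.19-fold). In Lewis it read 10.38, 10.51, 9.63 and 10.68 at PN1 and 11.54, 11.37, 11.85 and 11.71 at PN7, a rise of 1.32 ± 0.18. In Fisher it read 10.73, 11.20, 11.40 and 11.46 at PN1 and 11.79, 11.84 and 11.26 at PN7. Fisher lungs thus started highest at PN1, and their difference to PN7 of 0.43 ± 0.19 was not called (adjusted p = 0.0814). Without array c of PN7 it was 0.62 and was called (adjusted p = 0.0322). The ages overlapped in Fisher through array c of PN7, while in the other strains they did not. By PN14 all strains had reached 11.83 or more.

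Tek, the angiopoietin receptor, was lower at PN7 than at either other age in saline lungs averaged over the strains, though not in Fisher. Its lowest, median and highest values were 9.16, 9.53 and 10.41 at PN1, 8.24, 9.35 and 9.62 at PN7, and 9.20, 9.75 and 10.11 at PN14. The ranges overlapped, and the difference between PN14 and PN1 was 0.07, with a 95% interval from -0.09 to 0.24. Tek fell by 0.41 ± 0.08 to PN7 (adjusted p = 4.31e-05) and rose by 0.49 ± 0.08 to PN14 (adjusted p = 3.28e-06). With slide as a fixed term these steps were -0.34 and 0.35, with adjusted p-values of 0.0774 and 0.11.

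The dip of Tek was deepest in Brown Norway. Its arrays there read 10.35, 9.99, 10.41 and 10.36 at PN1, 9.36, 9.35, 9.62 and 9.36 at PN7, and 10.11, 10.05, 9.90 and 10.01 at PN14. PN7 lay below both other ages with no overlap, with a fall of 0.86 ± 0.14 and a rise of 0.60 ± 0.14, a step for which 20% of all probes were called. Lewis saline arrays read 9.53, 9.40, 9.63 and 9.52 at PN1 and 9.19, 9.43, 9.16 and 8.24 at PN7. The Lewis difference of -0.52 ± 0.14 was called with all arrays, and without array d of PN7 it was -0.26 with an adjusted p of 0.117. In Fisher the PN7 values lay between those of the other ages or level with PN1, since Tek read 9.18, 9.34, 9.16 and 9.16 at PN1, 9.32, 9.34 and 9.36 at PN7, and 9.63, 9.75, 9.76 and 9.76 at PN14. Fisher lungs gained 0.51 ± 0.14 from PN1 to PN14 with no overlap between those ages, a call that ended with slide as a fixed term (0.44, adjusted p = 0.348). The age course of Tek differed between strains with an adjusted p of 0.00148.

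Sox17, the arterial transcription factor, also had its lowest saline signals at PN7. Its lowest, median and highest values were 10.36, 11.24 and 12.03 at PN1, 9.83, 10.56 and 11.24 at PN7, and 10.49, 10.90 and 11.33 at PN14. It fell by 0.62 ± 0.09 to PN7 (adjusted p = 1.88e-08) and rose by 0.43 ± 0.09 to PN14 (adjusted p = 3.53e-05). With slide as a fixed term the rise was 0.36 and was not called (adjusted p = 0.0776). PN14 remained 0.19 ± 0.08 under PN1, which was not called (adjusted p = 0.0616) and became called without any one of 6 arrays.

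The fall of Sox17 was largest in Lewis, where arrays read 11.31, 11.49, 12.03 and 11.42 at PN1 and 10.75, 10.56, 10.11 and 10.35 at PN7. These ages did not overlap, and the fall was 1.12 ± 0.14 (adjusted p = 4.54e-08). In Fisher it read 10.66, 10.61, 10.47 and 10.36 at PN1 and 10.02, 10.18 and 9.83 at PN7, a fall of 0.52 ± 0.16 that was -0.43 and not called without array c of PN7 (adjusted p = 0.0779). In Brown Norway the values of 11.61, 10.90, 11.19 and 11.28 at PN1 overlapped those of 10.89, 11.24, 10.97 and 10.93 at PN7, with a difference of -0.23 ± 0.14 that was not called. The age course differed between strains with an adjusted p of 0.00139.

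Cldn5, the tight junction claudin, had the narrowest span of group means, 1.71-fold. Its saline signals had a lowest, median and highest value of 13.84, 14.23 and 15.02 at PN1, 14.24, 14.44 and 14.80 at PN7, and 14.15, 14.57 and 14.77 at PN14. The difference of PN7 to PN1 was 0.09 (95% interval -0.02 to 0.20) and that of PN14 to PN1 was 0.11 (0.01 to 0.21), and neither was called. Without the 4 arrays in doubt they were 0.14 and 0.13, and both were called (adjusted p = 0.0414 and 0.041). Under these means the strains went different ways (interaction adjusted p = 0.000898). Lewis arrays read 14.16, 14.23, 13.84 and 14.18 at PN1 and 14.48, 14.54, 14.59 and 14.36 at PN14, a rise of 0.39 ± 0.09 without overlap. Brown Norway arrays read 14.79, 14.86, 14.83 and 15.02 at PN1 and 14.74, 14.77, 14.72 and 14.75 at PN14, a difference of -0.13 ± 0.09 that was not called.

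Lewis is the strain in which 2 arrays of each of PN1 and PN14 saline lay on one slide. Within that slide, PN14 exceeded PN1 by 1.76 for Vwf, 1.74 for Car4 and 0.50 for Cldn5. Sox17 differed by -0.92 and Tek by -0.07 there. Each of these has the sign of the Lewis value over all arrays, which was 1.43 for Vwf, 1.58 for Car4, 0.39 for Cldn5, -0.65 for Sox17 and -0.03 for Tek.

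**Figure D2:**
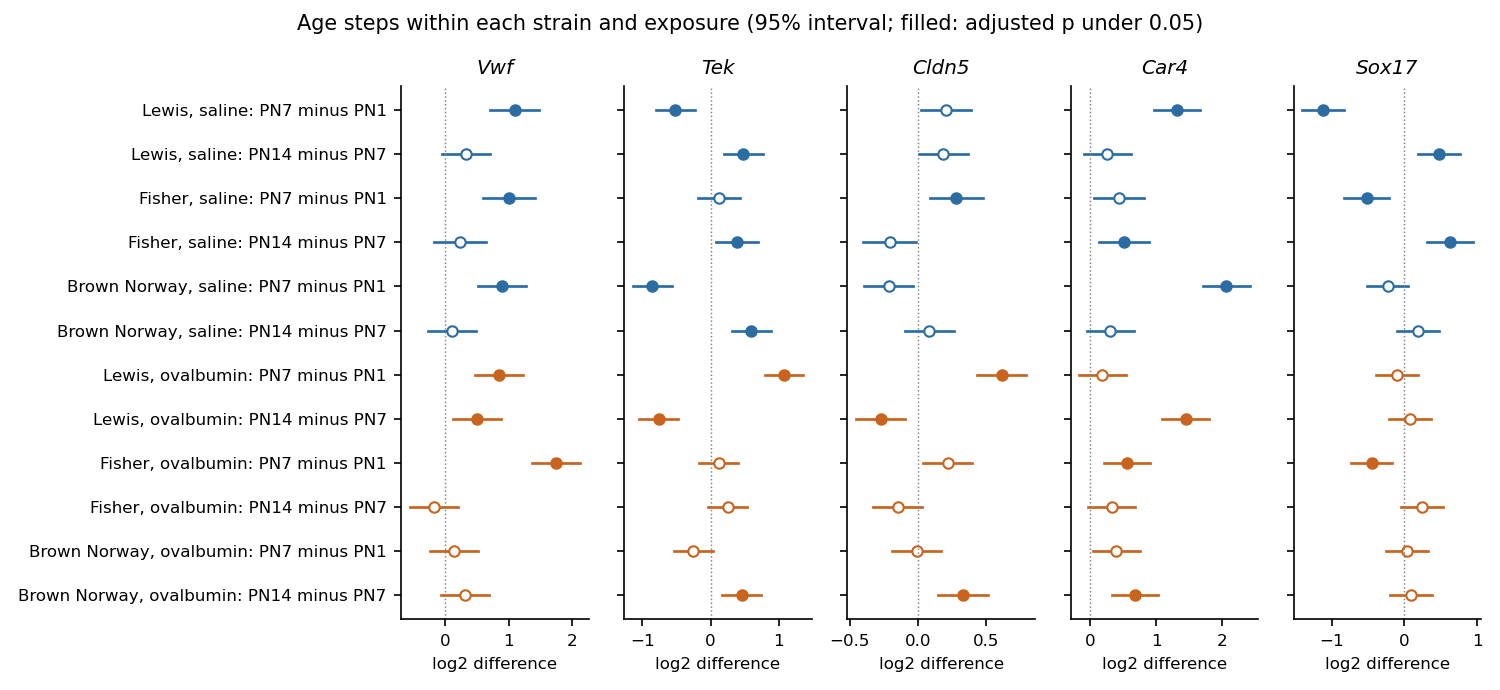
Difference in log2 signal (horizontal axes) between successive ages for each gene, by strain and exposure (rows), with saline in blue and ovalbumin in orange. Points are limma estimates with 95% intervals, filled where the adjusted p is under 0.05. From PN1 to PN7 the points of Vwf are filled in 5 of 6 rows, all but ovalbumin Brown Norway, and those of Car4 in 3, while for Tek the Lewis ovalbumin rows run opposite to the Lewis saline rows.

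In ovalbumin-exposed lungs the age courses were partly different. From PN1 to PN7, averaged over strains, 4 of 5 genes were called higher and none lower, against 31% of all probes. Vwf rose by 0.91, Car4 by 0.38, Tek by 0.31 and Cldn5 by 0.27. The Tek means went from 9.37 to 10.45 in Lewis and from 9.52 to 9.64 in Fisher, but from 9.65 to 9.40 in Brown Norway. Those of Cldn5 went from 14.13 to 14.75, 14.32 to 14.53 and 14.50 to 14.49 in that order. From PN7 to PN14 only Car4 was called, with a rise of 0.82, against 36.5% of all probes. From PN1 to PN14 Vwf, Car4, Tek and Cldn5 were called higher, by 1.12, 1.20, 0.30 and 0.24, against 32.4% of all probes. With slide as a fixed term the Vwf rise from PN1 to PN14 was 0.68 and no longer called (adjusted p = 0.0991).

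Vwf in ovalbumin-exposed Fisher lungs rose from 11.07, 11.68, 11.46 and 11.31 at PN1 to 12.93, 13.03, 13.34 and 13.21 at PN7, which is 1.75 ± 0.19 or 3.36-fold, where 31.1% of all probes were called. In ovalbumin-exposed Brown Norway lungs it was already at 13.07, 13.08, 12.86 and 13.15 at PN1, against 13.02, 13.41, 13.39 and 12.89 at PN7. That difference of 0.14 ± 0.19 was not called, and none of the 5 genes was called for this step in Brown Norway, where 4.23% of all probes were. Tek in ovalbumin-exposed Lewis lungs rose by 1.08 ± 0.14 from PN1 to PN7 and fell by 0.76 ± 0.14 to PN14, both without overlap. The shares of all probes called for these steps were 24.4% and 31.7%. In saline Lewis lungs both steps had the opposite sign. The PN1 and PN7 ovalbumin arrays of Fisher share no slide, and neither do the PN7 and PN14 ovalbumin arrays of Lewis. Slide and age therefore cannot be told apart for the Fisher rise of Vwf and the Lewis fall of Tek.

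Markers of other cells moved with age as well. All 6 tested megakaryocyte and platelet genes were called lower at PN14 than at PN1 in saline lungs, with a median difference of -0.98, and their summed signal went from 11.268 to 12.74 at PN1 down to 10.267 to 10.974 at PN14. Vwf, which these cells also carry, rose between the same ages, and the part of these cells in its signal was not tested. All 7 fibroblast genes were called higher, with a median of 1.18, and 5 of them under median scaling. Among the other endothelial markers, Emcn rose by 0.86 and Esam by 0.43, while Cdh5 differed by 0.27 and Tie1 by 0.13 without being called. The summed signal of these 4 markers lay between 13.419 and 13.911 at PN1 and between 14.121 and 14.628 at PN14. Of the other cell type lists, 3 of 10 epithelial genes were higher and 4 lower, 1 of 7 mural genes higher and 2 lower, and 2 of 4 lymphatic genes higher and 1 lower. Leukocyte genes had 3 higher and 1 lower of 4, and heart and skeletal muscle genes none higher and 1 lower of 6. None of 4 red cell genes and none of 4 liver genes was called in limma. What part the makeup of the lung had in the 5 genes was not tested.

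Brown Norway lungs had more signal than Lewis lungs for most of these genes. No probe sequence was available, so sequence differences between strains under the probes could not be checked. Averaged over the ages of the saline arrays, Brown Norway exceeded Lewis in 4 of 5 genes and was lower in none, where 23.4% of all probes were called. Brown Norway exceeded Fisher in 4 and was lower in none, against 32.2%. Fisher exceeded Lewis in 2 and was lower in 1, against 15.6%.

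Vwf ordered the saline strains as Brown Norway over Fisher over Lewis. Its lowest, median and highest values over the ages were 12.25, 13.31 and 13.59 in Brown Norway (n = 12), 11.72, 12.91 and 13.66 in Fisher (n = 11) and 10.67, 12.34 and 12.80 in Lewis (n = 12). Brown Norway exceeded Lewis by 0.98 ± 0.11 (adjusted p = 5.25e-11), and Fisher exceeded Lewis by 0.60 (adjusted p = 4.4e-05). Brown Norway exceeded Fisher by 0.38 (adjusted p = 0.00601), and this last difference was 0.22 and not called without array c of Fisher PN7 saline (adjusted p = 0.0794). In ovalbumin-exposed lungs Brown Norway exceeded Lewis by 1.20 and Fisher by 0.75, and Fisher exceeded Lewis by 0.45, all called. The shares of all probes called in these ovalbumin comparisons were 29.3%, 25.1% and 30.1% in that order.

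Tek and Cldn5 were higher in saline Brown Norway lungs than in both other strains. Tek had a lowest, median and highest value of 9.35, 10.002 and 10.41 in Brown Norway, 9.16, 9.34 and 9.76 in Fisher and 8.24, 9.44 and 9.73 in Lewis. It exceeded Lewis by 0.57 ± 0.08 (adjusted p = 8.93e-08) and Fisher by 0.48 (adjusted p = 5.61e-06). Cldn5 had values of 14.43, 14.76 and 15.02 in Brown Norway, 14.15, 14.27 and 14.67 in Fisher and 13.84, 14.32 and 14.59 in Lewis. It exceeded Lewis by 0.46 ± 0.05 (adjusted p = 1.24e-10) and Fisher by 0.37 (adjusted p = 8.59e-08). Fisher and Lewis differed by 0.09 in Tek and 0.08 in Cldn5, neither called. The ranges of the strains overlapped for both genes.

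The strain differences of Tek were not of one size in the ovalbumin-exposed lungs. There Tek in Brown Norway differed from Lewis by -0.20 (adjusted p = 0.0556), and Cldn5 exceeded Lewis by 0.15 (adjusted p = 0.0214). Between Brown Norway and Lewis, averaged over ages, 3 of the 5 genes were called in the ovalbumin arrays, against 29.3% of all probes.

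Sox17 was lowest in Fisher. Its lowest, median and highest saline values were 9.83, 10.49 and 10.84 in Fisher, 10.11, 10.90 and 12.03 in Lewis and 10.89, 11.17 and 11.61 in Brown Norway. All 12 Brown Norway arrays lay above all 11 Fisher arrays, by 0.76 on average (adjusted p = 7.17e-11). Fisher was also under Lewis by 0.58 (adjusted p = 2.22e-07), and Brown Norway differed from Lewis by 0.18, which was not called. In ovalbumin-exposed lungs Brown Norway exceeded Fisher by 0.43, while Fisher differed from Lewis by -0.22, a call that ended without any one of 11 arrays.

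Car4 differed between strains by age. Saline Brown Norway had a lowest, median and highest value of 9.76, 12.21 and 12.76 over the ages, Fisher 10.73, 11.79 and 12.22, and Lewis 9.63, 11.63 and 11.91. At PN1 Brown Norway differed from Fisher by -0.96, which was called with 30.9% of all probes, and from Lewis by -0.06, which was not, against 26.6%. At PN7 it exceeded Lewis by 0.69 and Fisher by 0.67, the latter against 29.2% of all probes called, and at PN14 it exceeded Lewis by 0.73. The PN7 difference from Lewis was 0.54 and not called without array b of Brown Norway PN7 saline (adjusted p = 0.0531). That from Fisher was 0.49 and not called without array c of Fisher PN7 saline (adjusted p = 0.105).

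At PN7 all 5 genes were called higher in saline Brown Norway than in saline Lewis, against 16.6% of all probes. Of these calls, that of Car4 ended without array b of Brown Norway and that of Tek without array b or c of Brown Norway or array d of Lewis, where Tek was at 0.16 (adjusted p = 0.433). Under median scaling Vwf was called and the other 4 were not. All 4 Brown Norway arrays lay on slide 4, with 2 of the Lewis arrays. Within that slide Brown Norway exceeded Lewis by 1.20 for Vwf, 0.85 for Car4, 0.36 for Sox17, 0.30 for Cldn5 and 0.11 for Tek. The 2327 probes called over the whole array ranged from 1353, without array b of Brown Norway, to 2754 when single arrays were left out. At PN14 Vwf, Tek and Car4 were called higher, against 5.66%, and the call of Tek ended without array c of Lewis (0.44, adjusted p = 0.0928). Between Fisher and Lewis at PN14 none of the 5 genes was called in limma, against 3.89% of all probes, of which 1578 had an unadjusted p under 0.05.

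Between saline Brown Norway and Lewis lungs averaged over ages, 23.4% of all probes were called. Of the 4 other endothelial markers 1 was called there, Emcn with 0.36. One of 6 megakaryocyte and platelet genes was called higher in Brown Norway, and of 7 fibroblast genes 2 were higher and 3 lower. The part of these cells in the strain differences was not tested.

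**Figure D3:**
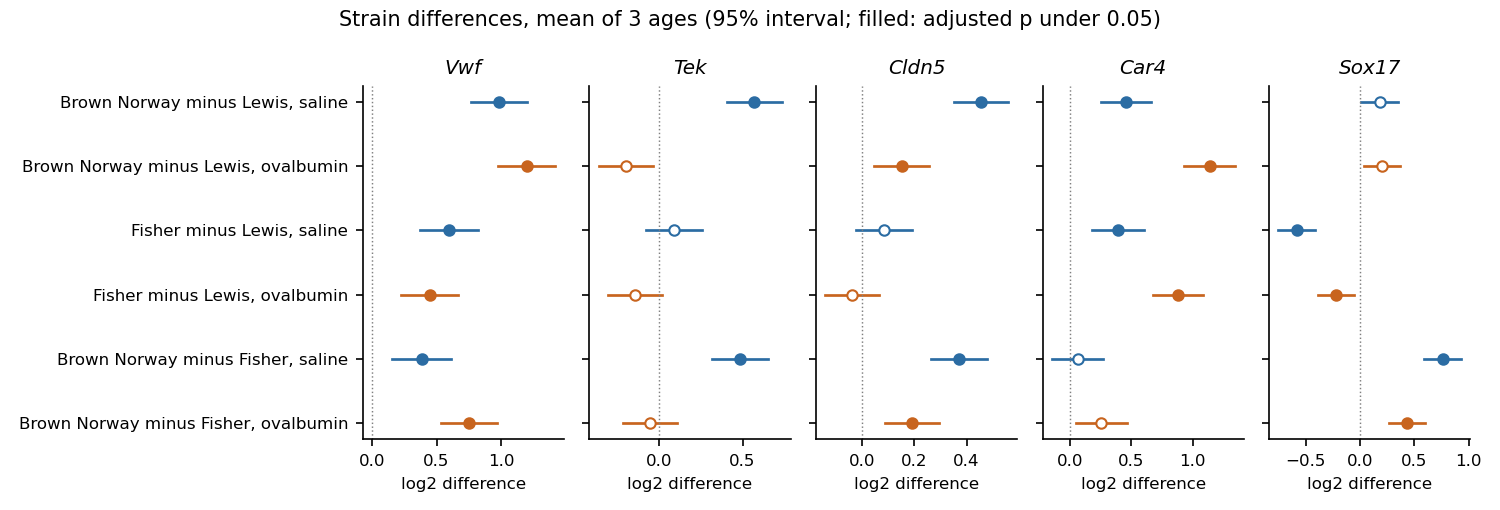
Difference in log2 signal between strains, averaged over the 3 ages (horizontal axes), for each gene, in saline (blue) and ovalbumin (orange) lungs. Points are limma estimates with 95% intervals, filled where the adjusted p is under 0.05. Brown Norway exceeds Lewis in Vwf under both exposures (0.98 and 1.20), while for Tek the saline difference of 0.57 stands against -0.20 under ovalbumin.

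Exposure to ovalbumin in utero went with large differences in Lewis at PN7 and in Brown Norway at PN1, and these ran in opposite directions for Tek, Cldn5 and Car4. In the other 7 comparisons of exposed with saline lungs, 1 call was made among the 5 genes, for Sox17 in Lewis at PN1.

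In Lewis at PN7, 2 of the 5 genes were called higher and 1 lower in ovalbumin-exposed lungs, against 35.2% of all probes called. Tek read 9.19, 9.43, 9.16 and 8.24 in saline lungs and 10.41, 10.29, 10.78 and 10.30 in exposed lungs. Every exposed array lay above every saline array, by 1.44 ± 0.14 on average (2.72-fold, adjusted p = 3.6e-12). Without the arrays in doubt the Tek difference was 1.19 (adjusted p = 1.04e-10).

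Cldn5 rose with Tek and Car4 fell. Cldn5 read 14.35, 14.36, 14.29 and 14.24 in saline lungs and 14.68, 14.66, 14.83 and 14.83 in exposed lungs, a difference of 0.44 ± 0.09 (adjusted p = 8.74e-05). Under median scaling it was 0.22 and was not called (adjusted p = 0.127). Car4 read 11.54, 11.37, 11.85 and 11.71 in saline lungs and 10.65, 10.88, 10.17 and 10.68 in exposed lungs. All exposed arrays lay below all saline arrays, with a difference of -1.02 ± 0.18 (0.492-fold, adjusted p = 4.34e-06). The exposed Lewis lungs at PN7, with 10.17 to 10.88, overlapped Lewis lungs at PN1, which had 9.63 to 10.68 under saline and 10.24 to 10.60 under ovalbumin.

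Vwf and Sox17 were not called in this comparison. Vwf differed by -0.20 (95% interval -0.58 to 0.18) and Sox17 by 0.32 (0.03 to 0.61, adjusted p = 0.0752). The 8 arrays lay in pairs of each group on slides 3 and 4. Within slide 3 the differences were 1.84 for Tek, 0.56 for Cldn5 and -1.36 for Car4. Within slide 4 they were 1.04, 0.31 and -0.69, so the signs were the same and the size was smaller on slide 4.

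In Brown Norway at PN1, 2 of the 5 genes were called higher and 2 lower in exposed lungs, against 26.3% of all probes. Car4 read 9.96, 11.05, 9.76 and 10.19 in saline lungs and 11.61, 11.70, 11.58 and 11.76 in exposed lungs. It was 1.42 ± 0.18 higher in exposed lungs (2.68-fold, adjusted p = 1.02e-08). Vwf read 12.55, 12.59, 12.25 and 12.39 against 13.07, 13.08, 12.86 and 13.15 in exposed lungs, a difference of 0.60 ± 0.19 (adjusted p = 0.0136). The call for Vwf ended without array c of the saline group, at 0.53 with an adjusted p of 0.0566, and under median scaling.

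Tek and Cldn5 went the other way in Brown Norway at PN1. Tek read 10.35, 9.99, 10.41 and 10.36 in saline lungs and 9.72, 9.56, 9.88 and 9.44 in exposed lungs, a difference of -0.63 ± 0.14 (adjusted p = 0.000441). Cldn5 read 14.79, 14.86, 14.83 and 15.02 against 14.37, 14.44, 14.58 and 14.60, a difference of -0.38 ± 0.09 (adjusted p = 0.000973). Sox17 differed by -0.27 ± 0.14 and was not called. Within slide 1, the one slide that held both groups, the differences were 1.15 for Car4, 0.51 for Vwf, -0.53 for Tek and -0.42 for Cldn5.

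The saline Brown Norway PN1 group had the highest mean of all 18 groups for Cldn5, 14.87, and the lowest for Car4, 10.24. Exposed Lewis PN7 lungs had the highest mean for Tek, 10.45, and saline Lewis PN7 lungs the lowest, 9.01. Both contrasts therefore involve a group at an end of the order.

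Sox17 was lower in exposed Lewis lungs at PN1, where 0.171% of all probes were called. The 24 probes called became 6 without array c or d of the saline group and 7 without array a of the exposed group. They became 39 and 51 without saline array a or b and 54 without exposed array d, and were most numerous without exposed array c. Sox17 read 11.31, 11.49, 12.03 and 11.42 in saline lungs and 10.61, 10.98, 11.08 and 10.79 in exposed lungs. The groups did not overlap, and the difference was -0.70 ± 0.14 (0.616-fold, adjusted p = 0.0157). Within slides 1 and 2 it was -0.61 and -0.64. The call ended without array c of the saline group (-0.54) or array a of the exposed group (-0.61, adjusted p = 0.126), and it ended under median scaling (-0.70, adjusted p = 0.152). No tested marker gene of the 10 cell type lists other than Sox17 was called in this comparison.

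In Fisher lungs none of the 5 genes was called at PN1 in limma, against 2.75% of all probes and 2090 probes with an unadjusted p under 0.05. Vwf came nearest there: it read 11.78, 12.20, 11.72 and 12.08 in saline lungs and 11.07, 11.68, 11.46 and 11.31 in exposed lungs. These values did not overlap, and the difference was -0.57 ± 0.19 (adjusted p = 0.0917). Without the 4 arrays in doubt it was -0.62 and was called (adjusted p = 0.0228). At PN7 none of the 5 was called in Fisher, against 2% of all probes and 2133 with an unadjusted p under 0.05. Sox17 read 10.02, 10.18 and 9.83 in saline lungs and 10.39, 10.40, 10.28 and 10.40 in exposed lungs, a difference of 0.36 with a 95% interval from 0.05 to 0.67. The number of probes called over the whole array ran from 8, without array d of the exposed group, to 541, without its array a. A fit of Fisher PN7 alone called 0 probes, and 1 with the replicate letters as a block. In Brown Norway at PN7 none was called in limma, against 0.15% of all probes and 2089 with an unadjusted p under 0.05. The 21 probes called there ranged from 0, without array b or d of the saline group or array a or b of the exposed group, to 599, without array a of the saline group. No slide held both exposures of Brown Norway at PN7, so slide and exposure cannot be told apart in that comparison.

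At PN14 none of the 5 genes was called in limma in any strain. The share of all probes called was 0% in Lewis, 0.0143% in Fisher and 0.00713% in Brown Norway, with 348, 588 and 380 probes at an unadjusted p under 0.05. The 95% intervals of the exposure difference at PN14 ran from -0.20 to 0.51 for Car4 in Fisher and from -0.08 to 0.48 for Tek in Lewis. No slide held both exposures of one strain at PN14, so slide and exposure cannot be told apart there.

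The exposure differences themselves differed between strains at PN1 for all 5 genes, with adjusted p-values of 0.0031 for Vwf, 0.00131 for Tek, 0.0136 for Cldn5, 7.05e-05 for Car4 and 0.00079 for Sox17, against 22.6% of all probes. That of Cldn5 was 0.0512 without array d of Brown Norway PN1 saline. At PN7 they differed between strains for Tek (adjusted p = 2.26e-07), Cldn5 (0.000592) and Car4 (0.000224) but were not called for Vwf and Sox17, against 25% of all probes. At PN14 no gene had an exposure difference that was called as differing between strains, and 0% of all probes did. Averaged over strains, the exposure difference varied with age for Tek (adjusted p = 1.28e-05), Car4 (2.6e-05) and Sox17 (0.0101), against 22.2% of all probes. Averaged over strains and ages, only Tek was called, with 0.16 ± 0.05 (adjusted p = 0.0328), against 4.78% of all probes, and this call ended without any one of 4 arrays. Group means of Tek were 10.45 in exposed and 9.005 in saline Lewis PN7 lungs, and 9.65 and 10.28 in Brown Norway PN1. The average thus joins differences of opposite sign and unequal size.

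**Figure D4:**
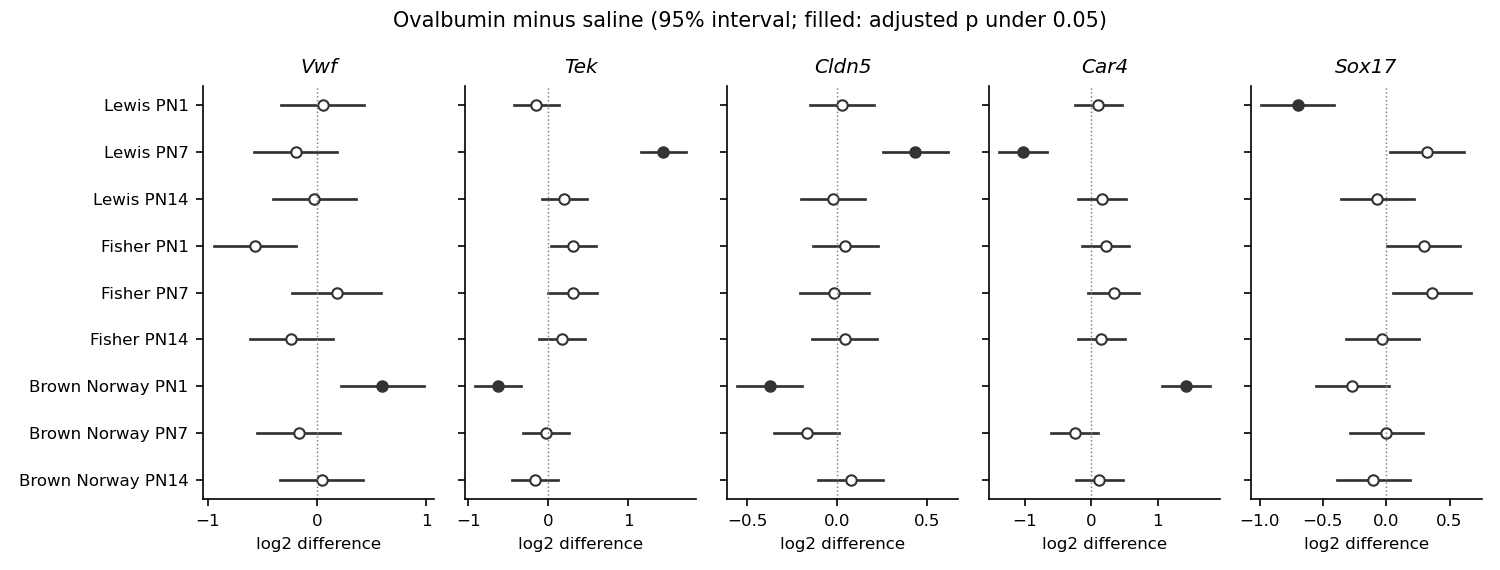
Difference in log2 signal of ovalbumin-exposed minus saline lungs (horizontal axes) for each gene in each strain and age (rows). Points are limma estimates with 95% intervals, filled where the adjusted p is under 0.05. Lewis PN7 and Brown Norway PN1 carry most filled points, with opposite signs for Tek (1.44 and -0.63), Cldn5 (0.44 and -0.38) and Car4 (-1.02 and 1.42).

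Markers of other cells differed in the same comparisons. In Lewis at PN7, the summed signal of 6 megakaryocyte and platelet genes lay between 10.989 and 11.885 in saline lungs and between 12.177 and 13.479 in exposed lungs, with 3 genes called higher and none lower. That of 7 fibroblast genes lay between 16.143 and 16.47 in saline lungs and between 15.682 and 15.867 in exposed lungs, with 1 called higher and 4 lower. Of 10 epithelial genes 4 were called higher, with sums of 17.04 to 17.359 against 17.369 to 17.518. Mural cell sums of 7 genes were 12.914 to 13.448 in saline lungs and 12.419 to 12.657 in exposed lungs, with 2 genes called higher and 2 lower. Those of 4 leukocyte genes were 9.99 to 10.396 and 10.677 to 10.81, with 1 called higher and none lower. The sums of the 2 groups did not overlap for these 5 lists. The 4 other endothelial markers summed to between 13.623 and 14.096 in saline lungs and between 13.357 and 13.723 in exposed lungs, and Emcn was called lower by 0.54 while Cdh5, Tie1 and Esam were not called. Their part in the results on Tek, Cldn5 and Car4 was not tested.

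In Brown Norway at PN1 several of these differences had the other sign. Of 7 fibroblast genes 5 were called higher and 1 lower in exposed lungs, with sums of 15.707 to 16.051 in saline lungs and 16.127 to 16.241 in exposed lungs. Under median scaling 3 were called higher and none lower. Of 6 megakaryocyte and platelet genes 2 were called lower, with sums of 12.412 to 12.74 against 11.864 to 12.265. Of 10 epithelial genes 2 were called higher and 4 lower. Mural cell sums were 12.652 to 12.991 in saline lungs and 13.03 to 13.259 in exposed lungs, with 2 genes called higher and 2 lower of 7. Leukocyte sums were 10.211 to 10.422 and 9.955 to 10.09, with 1 called higher and 1 lower of 4. Of the other endothelial markers only Tie1 was called, lower by 0.35, with endothelial sums of 13.419 to 13.762 in saline lungs and 13.737 to 13.907 in exposed lungs. The part of these cells was not tested either.

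The group means of the 5 genes lay in a near-continuous order. Of the 17 steps between neighbours in the order of 18 group means, 1 was larger than the pooled SD of the replicates for Vwf, 2 for Tek, 1 for Cldn5, 2 for Car4 and 2 for Sox17. The pooled SD was 0.28 for Vwf, 0.20 for Tek, 0.13 for Cldn5, 0.26 for Car4 and 0.21 for Sox17. Vwf ran from 11.26 in saline Lewis PN1 to 13.49 in exposed Brown Norway PN14, which is 4.71-fold. Car4 ran from 10.24 in saline Brown Norway PN1 to 12.73 in exposed Brown Norway PN14. Sox17 ran from 10.01 in saline Fisher PN7 to 11.56 in saline Lewis PN1, 2.94-fold. Tek spanned 2.72-fold.

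Some of the 5 genes followed each other over the groups and others did not. Vwf and Car4 had a Pearson correlation of 0.81 over 18 group means and 0.51 over the 71 arrays after group means were removed. Vwf and Cldn5 had 0.64 and 0.48. Tek and Cldn5 had 0.65 over the group means and -0.01 within groups. Tek and Car4 had -0.10 over group means and -0.40 within groups. The points share their arrays, so these values describe the data and carry no test.

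Genes whose 18 group means were most like those of each gene were found over all tested genes with a symbol. For Vwf these were RT1-CE15 (Pearson correlation 0.91), Psmb8 (0.89), Mapk12 (0.88) and Tap1 (0.88), of which Psmb8 and Tap1 serve the loading of class I antigens. For Car4 they were Phyhipl (0.95), Gbp2 (0.94), Vopp1 (0.93) and Nkg7 (0.93). For Tek they were Tgfbr3 (0.89), Il6r (0.89), Snx33 (0.88) and Cst3 (0.87). For Cldn5 they were Tmem174 (0.90), P4ha2 (0.89), Upp1 (0.88) and Meltf (0.87), and for Sox17 they were Emc2 (0.86), Prpf38b (0.84), Pyroxd1 (0.82) and Luc7l2 (0.82). The genes most opposite were Dnaaf6 for Vwf (-0.92), Tubb5 for Tek (-0.94), Ube2n for Cldn5 (-0.92), Klc3 for Car4 (-0.93) and Psmc1 for Sox17 (-0.91).

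Lists of related genes, without the 5 themselves, put the age differences of saline lungs in context. The median difference from PN1 to PN14 over all tested probes was -0.01, and 35.2% were called. Of 12 tested genes of the angiopoietin and VEGF axis, 8 were called higher and 2 lower, with a median of 0.49. Angpt1 and Angpt2, the ligands of Tek, rose by 1.31 and 0.92, and Vegfb fell by 0.57. Of 11 lung capillary genes, to which Car4 belongs by its site, 8 were higher and 2 lower with a median of 0.42. Among them Apln rose by 1.57, Fibin by 0.68 and Plvap by 0.52. Apln encodes the ligand apelin, and Plvap a protein of endothelial diaphragms.

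The claudin and tight junction list had more genes lower than higher. Of 17 tested claudins and tight junction partners, 2 were called higher and 9 lower, with a median of -0.47. Cldn4 fell by 2.13 and Cldn10 by 1.39, both claudins of epithelia. Cldn11 was not detected on any of the 12 PN1 arrays and was at least 3.17-fold higher at PN14 (adjusted p = 6.68e-24). Of 8 carbonic anhydrases, 4 were called higher and 3 lower, with a median of 0.07, and Car8 rose by 0.35 while Car5a fell by 0.76. Car5a was detected on 10 of 12 PN1 arrays and 1 of 12 PN14 arrays, so the size of its fall is uncertain.

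The other endothelial lists had smaller medians than the angiopoietin and capillary lists. Of 9 pan-endothelial adhesion and surface genes 5 were called higher and none lower, with a median of 0.27, and among them Emcn rose by 0.86, Icam2 by 0.55 and Jam3 by 0.51. Of 16 arterial and Notch genes, to which Sox17 belongs by its role, 7 were higher and 2 lower, with a median of 0.19. Dll4, a Notch ligand of arterial and tip cells, rose by 0.71 and Gja4, a connexin, by 0.56, while the arterial connexin Gja5 fell by 0.96. Of 17 endothelial transcription factors 5 were higher and 2 lower with a median of 0.11, and Ets1 rose by 0.59 while Mecom fell by 0.31 and Tal1 by 0.39. Tal1 was detected on 11 of 12 PN1 arrays and 5 of 12 PN14 arrays, so the size of its fall is uncertain. Of 17 Weibel-Palade body, haemostasis and vasomotor genes 8 were higher and 4 lower with a median of 0.19, and Icam1 rose by 0.90, Plvap by 0.52 and Thbd by 0.41.

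**Figure D5:**
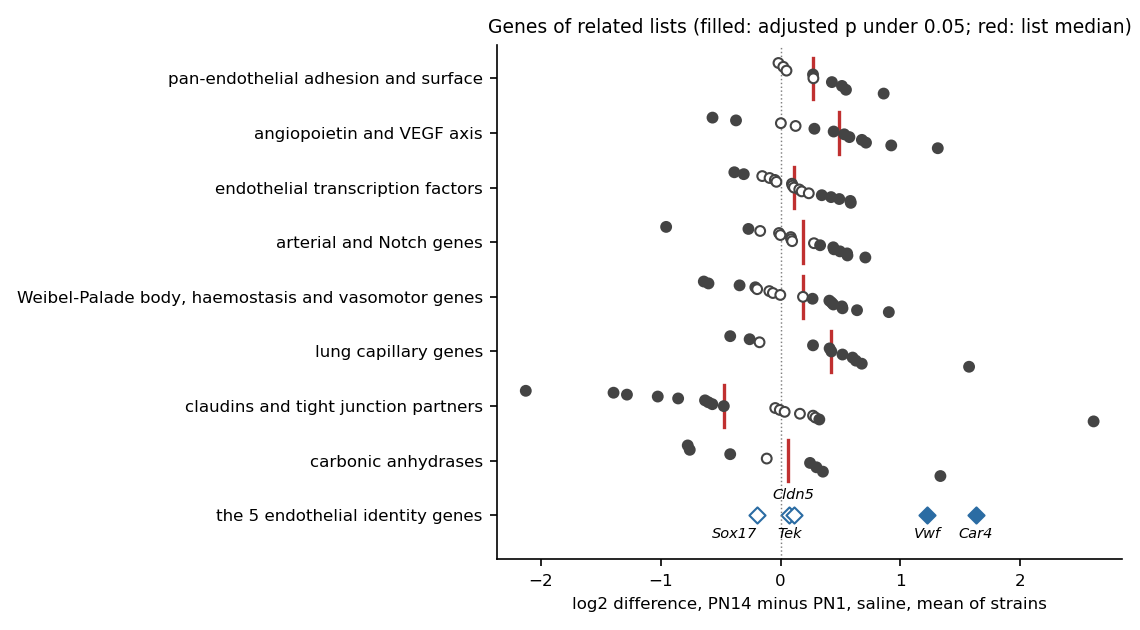
Difference in log2 signal from PN1 to PN14 in saline lungs, averaged over strains (horizontal axis), for each tested gene of 8 lists of related genes and for the 5 genes themselves (rows). Points are filled where the limma adjusted p is under 0.05, and red bars mark list medians. List medians run from -0.47, for the claudin list, to 0.49, and Vwf lies at 1.22 and Car4 at 1.63, while single genes of the lists such as Apln reach similar values.

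Between Brown Norway and Lewis in saline lungs, where 23.4% of all probes were called, the related lists were called less uniformly. Counts near that share set no list apart. Of 16 arterial and Notch genes 6 were higher in Brown Norway and 1 lower, with Notch4 at 0.50, Bmx at 0.51 and Cxcl12 at -0.46. Of 17 Weibel-Palade body, haemostasis and vasomotor genes 4 were higher and 1 lower, with Ace, the angiotensin-converting enzyme of lung capillaries, at 0.58, Procr at 0.50 and Ece1 at 0.32. Of 12 angiopoietin and VEGF genes 2 were higher and none lower, Angpt2 by 0.39 and Pgf by 0.41. The lung capillary list had 1 higher and 3 lower of 11. In that list Gpihbp1, which carries lipoprotein lipase onto capillaries, was higher by 1.42, and Fibin and Lpl were at -0.92 and -0.48. Of 17 transcription factors 4 were higher and 1 lower, with Meox2 at -0.93, Gata2 at 0.37 and Mecom at 0.36. The pan-endothelial list had 1 higher and 1 lower of 9, the claudin list 2 higher and 1 lower of 17, and the carbonic anhydrases 1 higher and 1 lower of 8.

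In the Lewis PN7 exposure comparison 35.2% of all probes were called, and the median difference over all probes was 0.01. The arterial and Notch list had 8 of 16 genes called higher and 2 lower, with a median of 0.45. The Notch target Hey1 was higher by 1.58, the chemokine receptor Cxcr4 by 1.42 and Dll4 by 1.08, while Cxcl12 was at -1.03. Of 17 claudins and tight junction partners 9 were called higher and none lower, with Cldn1 at 2.10 and Cldn4 at 2.04. Under median scaling 7 of them were higher and none lower, and without the 4 arrays in doubt 9 were higher and 2 lower. Cldn1 was detected on only 2 of the 12 saline Lewis arrays of all ages, so the size of its difference is uncertain. Of 8 carbonic anhydrases 1 was higher and 4 lower, and Car2 was at -0.81. Of 11 lung capillary genes 1 was higher and 1 lower, and Apln was at -2.28. The pan-endothelial list had none higher and 3 lower of 9, the angiopoietin and VEGF axis 1 higher and 2 lower of 12, the transcription factors 5 higher and 1 lower of 17, and the Weibel-Palade body list 5 higher and 4 lower of 17. Genes in this paragraph and the next were named after their values had been seen.

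In Brown Norway at PN1, where 26.3% of all probes were called, some of these lists had counts that leaned the other way. A count near that share sets no list apart. Of the arterial and Notch genes 2 were called higher and 4 lower in exposed lungs, with Hey1 at -1.14, Notch4 at -0.77 and Notch1 at -0.76. The median of that list was 0.08, of the same sign as in Lewis at PN7. Of the claudins and tight junction partners none was higher and 5 were lower, with Cldn1 at -1.98 and Cldn4 at -1.71. Their list median was -0.04, against 0.50 in Lewis at PN7. Cldn1 was detected on 4 of the 12 saline Brown Norway arrays of all ages, so the size of its difference is uncertain here too. Of the carbonic anhydrases 3 were higher and none lower, with Car2 at 1.25. Apln, of the lung capillary list with 3 higher and 4 lower of 11, was higher by 2.29. The pan-endothelial list had 1 higher and none lower, the angiopoietin and VEGF axis 2 and 2, the transcription factors 1 and 4, and the Weibel-Palade body list 2 and 6. The claudins named here are known from epithelia, so they sit beside the epithelial marker values given above, whose part was not tested.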

How the data were processed

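Total RNA of whole lung was extracted with Trizol and converted to biotinylated cRNA, per the labels' protocols. The deposited scanner table holds raw probe intensity and a detection p-value per array. The authors' deposited value table holds log2 values, which equalled quantile-normalized log2 raw intensity within 5e-05 and were used as an alternative; the submitters' processing notes name lumi.

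From the raw intensity, neqc in limma 3.58.1 (R 4.3.3) made background-corrected, quantile-normalized log2 signals, with an offset of 16. Probes with a detection p under 0.01 on at least 3 arrays were tested, 14019 of 22523. Platform annotation gave 13793 probes 1 symbol and none several. One limma model held 18 group means (53 residual degrees of freedom, trended eBayes). Comparisons were contrasts or F tests, called at a Benjamini-Hochberg adjusted p under 0.05 over all tested probes, and intervals are 95%. Promoter matches and figures used Python 3.11.15 and matplotlib 3.10.9. The number of arrays limits the precision.

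The 5 genes and all lists were chosen with earlier results of these data known. Named genes are the 5, the 4 genes most like and the 2 most opposite to each by group means, and up to 3 per related list by adjusted p in 2 comparisons, given where they could be interpreted. Slides were tested as fixed and random terms and within each slide. Replicate letters a to d paired samples only in Fisher PN7, where deviations of same-lettered arrays correlated at 0.35, 0.43 and 0.34, a hint from the data that no label explains. The scripts were tested on simulated data. The other alternatives were the authors' values, median scaling, no detection filter, only the groups compared, and leaving out arrays.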

Additional observations from a re-analysis of the deposited data

Results flagged for a closer look

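Among the 85 groups of 4 arrays examined gene by gene, 5 held an array far from the other 3 by Dixon's 95% criterion, and chance marks about 1 group in 20. Tek accounted for 4 of them, with 9.34 on array b of Fisher PN1 saline (nearest other 9.18), 9.99 on array b of Brown Norway PN1 saline (10.35), 9.62 on array c of Brown Norway PN7 saline (9.36) and 9.63 on array a of Fisher PN14 saline (9.75). Sox17 accounted for 1, with 10.28 on array c of Fisher PN7 ovalbumin (10.39).

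The age course in saline lungs differed between the strains in limma's F test for Tek (adjusted p = 0.00148), Cldn5 (0.000898), Car4 (1.18e-05) and Sox17 (0.00139). The exposure difference differed between strains at PN1 for Vwf (0.0031), Tek (0.00131), Cldn5 (0.0136, and 0.0512 without array d of Brown Norway PN1 saline), Car4 (7.05e-05) and Sox17 (0.00079). At PN7 it differed between strains for Tek (2.26e-07), Cldn5 (0.000592) and Car4 (0.000224). Averaged over strains, the exposure difference differed between ages for Tek (1.28e-05), Car4 (2.6e-05) and Sox17 (0.0101). Under median scaling the age course of Tek and of Sox17, the PN7 difference of Cldn5 and the difference of Sox17 between ages were no longer called, and that of Cldn5 between ages was.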

How the results depend on the processing

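With the authors' values, without the detection filter, with slide as a random block and with the replicate letters as a block, each of 75 main differences of the 5 genes kept its side of the threshold, for example Tek in Lewis PN7 at 1.44 with the replicate block. The cause of the changes below was not tested. Median scaling gave 0.32 for Vwf from PN7 to PN14, 0.24 for Vwf in saline Brown Norway over Fisher, 0.50 for Vwf in exposed Brown Norway PN1, 0.22 for Cldn5 in exposed Lewis PN7 and -0.70 for Sox17 in exposed Lewis PN1. A fixed slide term gave -0.34 and 0.35 for the Tek age steps, 0.36 for Sox17 from PN7 to PN14 and -0.65 for Vwf in exposed Fisher PN1. A fit of only the groups compared gave -0.70 for Sox17 in exposed Lewis PN1, where fewer arrays estimate the spread. Leaving out the 4 arrays in doubt, a choice made after seeing the data, gave 0.20 for Vwf in Brown Norway over Fisher, -0.62 for Vwf in exposed Fisher PN1, 0.14 and 0.13 for Cldn5 at PN7 and PN14 over PN1, and -0.61 for Sox17 in exposed Lewis PN1. Leaving out the 4 arrays farthest from their groups, chosen likewise, gave 0.20 and -0.57 for these 2 Vwf differences and -0.19 for Sox17 from PN1 to PN14, now called. Within slides, exposure differences were -0.26 for Vwf and -0.12 for Cldn5 in Lewis PN1 (slide 1). They were -0.47 and -0.19 for the same genes in Fisher PN7 (slide 4). For Lewis PN7 they were 1.84 and 1.04 for Tek and -1.36 and -0.69 for Car4 (slides 3 and 4), and for Car4 in Brown Norway PN1 1.15 (slide 1). The Vwf difference of Fisher from Lewis at PN7 was -0.61 within slide 3, reversed, where the Fisher array is the doubted array c. Among the other differences of the 5 genes, median scaling ended 37 calls and a fixed slide term 29, while they added 10 and 7. Leaving out single arrays gave 0.0565 to 0.31 for Vwf from PN7 to PN14, 0.22 to 0.47 for Vwf in Brown Norway over Fisher and 0.53 to 0.66 for Vwf in exposed Brown Norway PN1. It gave 0.0738 to 0.13 for Cldn5 from PN1 to PN14, and for Sox17 -0.23 to -0.14 from PN1 to PN14, 0.14 to 0.23 for Brown Norway over Lewis, -0.78 to -0.54 in exposed Lewis PN1 and 0.21 to 0.43 in exposed Lewis PN7. The call for Cldn5 changed without array a of Fisher PN1 saline or array c of Fisher PN14 saline, and that for Vwf from PN7 to PN14 without array a or b of Fisher PN7 saline. That for Sox17 changed from PN1 to PN14 without array a or d of Lewis PN1, d of Fisher PN1, b of Brown Norway PN1, c of Lewis PN14 or d of Fisher PN14, all saline, for Brown Norway over Lewis without array c of Lewis PN1 or b of Brown Norway PN1 saline, and in Lewis PN7 without saline array a. The other probe of each gene planned as an alternative was not run, since each gene has 1. Letters paired samples only in Fisher PN7, and a fit of those groups alone with the letters as a block changed no call of the 5 genes. Arrays of 1 slide leave no fit with an error, and signal was above background for all 5 genes on every array.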
